A study of Rattus norvegicus with 6 samples.

Results

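Pinlyp and Xrcc1 are adjoining genes of rat chromosome 1, and with Plaur, Irgq, Zfp575, Ethe1 and Phldb3 they make a group of 7 genes that lie close together in mammalian genomes. The 7 were chosen by symbol with the difference between streptozotocin-treated and untreated cells already in view, and 6 of them were found among the 18930 rows of the count table. No row was named Zfp575 or Znf575, so this gene was not measured here. The cells were NRK-52E, an established epithelial line from normal rat kidney of wild-type genotype. STZ, a nitrosourea that alkylates DNA, was given to 3 samples at 10 mM for 24 h (STZ), and 3 samples received vehicle only (Control). A single line, dose and time were used, and the labels do not say whether samples of a group were separate cultures. The SDs given are thus the spread between these samples only. Standard errors and confidence intervals come from edgeR, whose estimate of spread also draws on the other genes tested. Neither is known to cover variation between cultures.

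Xrcc1 encodes the scaffold protein of single-strand break repair, which holds DNA polymerase beta and DNA ligase III at breaks marked by poly(ADP-ribose) polymerases. Such breaks arise when alkylated bases are cut out of DNA. Pinlyp and Plaur encode proteins with the three-finger fold of the Ly6/uPAR family, Pinlyp a predicted secreted inhibitor of phospholipase A2 and Plaur the membrane-anchored receptor of urokinase. Ethe1 encodes a mitochondrial persulfide dioxygenase of hydrogen sulfide breakdown. Irgq belongs to the immunity-related GTPases, Phldb3 encodes a protein with a pleckstrin homology-like domain, and Zfp575 encodes a zinc finger protein.

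In the RefSeq annotation of the GRCr8 assembly the order along the chromosome was Plaur, Cadm4, Zfp428, Srrm5, Irgq, Pinlyp, Xrcc1, Zfp575, Ethe1 and Phldb3, counting protein-coding genes. The 6 genes from Irgq to Phldb3 thus follow each other directly, and Plaur is set apart by 3 other genes. None of the 7 spans overlapped another annotated gene. Pinlyp lies on the minus strand and Xrcc1 on the plus strand, so that they are transcribed away from each other. The study mapped its reads to another build, Rnor6, and these coordinates belong to GRCr8 only. RefSeq promoter sequences were found for 5 of the 7 genes. The 250 bases before the annotated start are shown, 5′ to 3′ in the direction of transcription, for the divergent pair at the centre of the group and for the gene set apart from it. Capitals mark every CG, the letters TATAA and the letters TGACTCA on either strand.
Pinlyp, chr1:89267914-89268163, minus strand: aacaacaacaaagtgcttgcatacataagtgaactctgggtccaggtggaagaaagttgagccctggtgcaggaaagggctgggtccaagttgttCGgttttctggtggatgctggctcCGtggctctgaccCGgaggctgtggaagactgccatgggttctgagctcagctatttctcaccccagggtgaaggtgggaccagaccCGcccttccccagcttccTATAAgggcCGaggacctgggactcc
Xrcc1, chr1:89268939-89269188, plus strand: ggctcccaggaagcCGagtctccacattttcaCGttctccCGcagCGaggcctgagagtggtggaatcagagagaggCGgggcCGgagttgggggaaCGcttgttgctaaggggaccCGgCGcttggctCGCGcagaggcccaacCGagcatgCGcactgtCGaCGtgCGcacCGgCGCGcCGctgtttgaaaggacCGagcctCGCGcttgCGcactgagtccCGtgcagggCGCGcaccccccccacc
Plaur, chr1:89181113-89181362, plus strand: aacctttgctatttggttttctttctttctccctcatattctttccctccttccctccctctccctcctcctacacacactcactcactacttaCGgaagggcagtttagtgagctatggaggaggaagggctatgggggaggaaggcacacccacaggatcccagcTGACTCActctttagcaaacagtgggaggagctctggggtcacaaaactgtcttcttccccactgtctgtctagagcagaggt

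The promoters of the pair differed in base composition. Xrcc1 had 27 CG dinucleotides in the 250 bases and a GC content of 68%, and as many CG dinucleotides or more were found in 7.69% of 33469 rat promoters of the same length. Pinlyp had 5, the median of all promoters, and Plaur had 1. The letters TATAA were found in Pinlyp alone of the 5 promoters searched, and in 24% of all promoters. The letters TGACTCA, to which AP-1 factors bind, were found in Plaur alone of the 5, and in 4.05% of all promoters. CCAAT was found in Irgq alone, against 34% of all promoters. GGGCGG was found in Irgq and Pinlyp, against 30.5% of all promoters. The p53 half-site, searched without mismatches, was found in 6.64% of all promoters, and TGACGTCA in 1.59%. Neither was in the 5 windows, which says only that these letters are not there. All motifs were searched on both strands.

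The libraries held 10430924 to 15191349 counts. Counts were scaled by TMM (factors 0.988 to 1.02) and are given as CPM, the count of a gene relative to the size of its library. Enough reads to be tested were found for 11870 genes. At an adjusted p-value under 0.05, STZ raised 25.9% and lowered 25.1% of them, and the median log2 fold change was -0.0055. The label of the line was checked against marker genes. Of 7 epithelial markers, Epcam, Krt19 and Cldn1 had no row, Krt8 had at least 11691 counts per sample and Tjp1 at least 6373, but Cdh1, the gene of E-cadherin, had only 16 to 35 and Krt18 at most 3. Of 6 mesenchymal markers, Vim had at least 20083 counts, Acta2 at least 519, Col1a1 at least 307 and Pdgfrb at least 184, while Col1a2 and Pdgfra had at most 4. Markers of both kinds were thus detected. The 5 proximal tubule markers had at most 10 counts in any sample and the 4 endothelial ones at most 9. Of 6 leukocyte markers, Itgam had no row, Ptprc and Adgre1 had at most 1 count and Csf1r at most 7, but Cd14 had 1077 to 1792 and Cd68 had 7 to 29.

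The 6 measured genes were all higher in STZ than in Control, and by unequal amounts. Pinlyp was 7.41-fold higher (95% confidence interval 6.19 to 8.88), while the other 5 were between 1.24-fold and 1.68-fold higher. The order of the fold changes was Pinlyp, Xrcc1, Ethe1, Phldb3, Plaur and Irgq. In each of the 6, every STZ sample lay above every Control sample, a pattern found in 28.6% of all genes tested. All 6 also passed an adjusted p-value of 0.05 in the higher direction, as did 25.9% of all genes, and 1 of the 6, Pinlyp, passed a log2 fold change of 1 as well, as did 2.26% of all genes. Because the genes were chosen with this contrast in view, these counts are a description and no test is given for them. The RNA came from whole cultures, in which a change per cell and a change in the make-up of the cells cannot be told apart. Marker genes moved with STZ as well. The summed level of the epithelial markers was 1704 to 1791 CPM in Control and 2283 to 2288 CPM in STZ, with Krt8 (log2 fold change 0.48) and Tjp1 (0.15) higher and Cdh1 (-0.69) lower. The mesenchymal sum was 1991 to 2213 CPM in Control and 1916 to 1949 CPM in STZ, and all 4 markers tested fell, by log2 fold changes of -0.33 to -0.12. The leukocyte sum was 102 to 104 CPM in Control and 121 to 129 CPM in STZ, with Cd14 higher (0.26). Their part in the result was not tested.

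**Figure D1:**
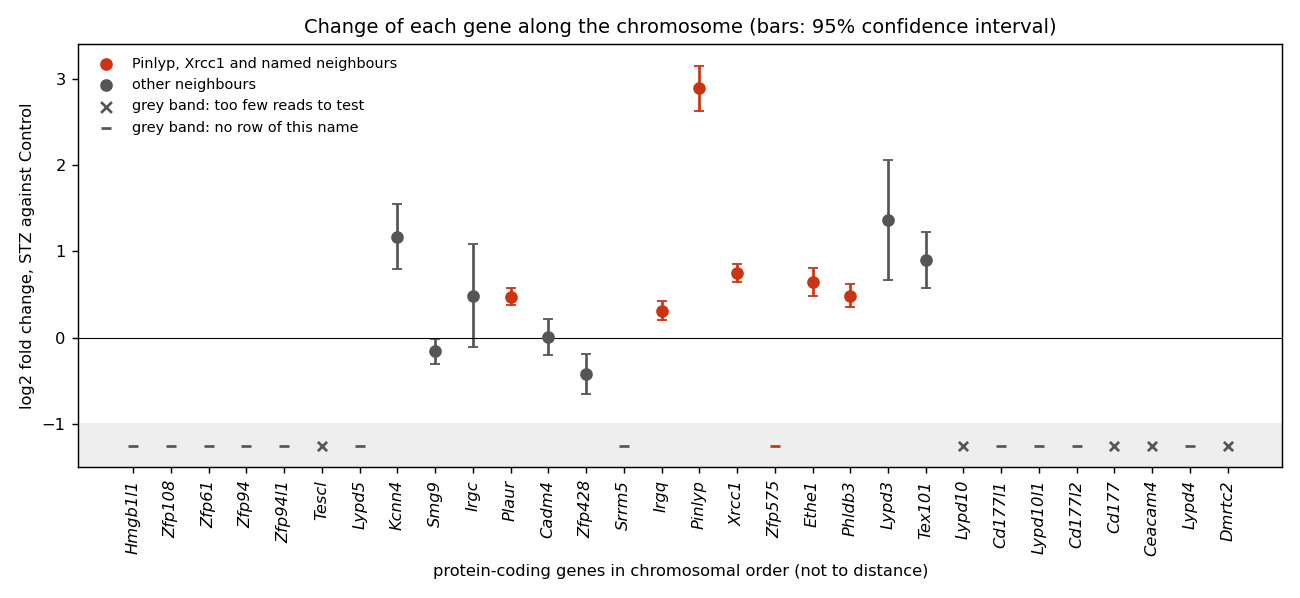
Log2 fold change (STZ against Control) of 30 protein-coding genes in their chromosomal order in GRCr8, with 95% confidence intervals from edgeR; the x axis gives order and not distance. Red points are the 6 measured genes of the group and dark points other neighbours; symbols in the grey band are genes with too few reads (crosses) or no row of that name (dashes), and carry no value. Pinlyp stands highest, at 2.89, the other red points lie between 0.31 and 0.75, and Cadm4 and Zfp428, between Plaur and Irgq, lie at 0.01 and -0.42.

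Among the genes of DNA repair, Xrcc1 had 78.1, 70.7 and 76.0 CPM in the Control samples and 117, 137 and 124 CPM in the STZ samples. The highest Control sample was thus well below the lowest STZ sample. The means were 74.9 ± 3.81 and 126 ± 9.98 CPM (SD, n = 3 each), and the log2 fold change was 0.75 ± 0.05 (SE), which ranked 484 among the 11870 genes tested.

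Of the Ly6/uPAR pair, Pinlyp was scarce in Control cells, with 43, 35 and 39 raw counts, and reached 356, 317 and 341 in STZ. On the CPM scale these were 4.05, 3.18 and 3.04 in Control and 25.9, 27.5 and 22.7 in STZ. The groups were far apart and no single sample carried the difference. The means were 3.42 ± 0.548 and 25.4 ± 2.43 CPM (SD, n = 3 each), and the log2 fold change of 2.89 ± 0.13 (SE) ranked 12 among all genes tested. This rank depended on the filter, and was 2 with 10 counts required in every sample, 43 with 0.5 CPM in 1 sample and 333 with no filter. Plaur, the urokinase receptor, had 67.1, 67.5 and 66.5 CPM in Control and 92.7, 94.9 and 91.9 CPM in STZ. Its spread within groups was narrow, with means of 67.1 ± 0.489 and 93.1 ± 1.55 CPM (SD, n = 3 each) and a log2 fold change of 0.47 ± 0.05 (SE).

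Ethe1, the sulfide-oxidising enzyme, had 22.6, 18.9 and 19.9 CPM in Control and 31.7, 32.4 and 31.9 CPM in STZ. The STZ samples were closer together than the Control samples, and the log2 fold change was 0.64 ± 0.08 (SE). Phldb3 had 31.5, 34.9 and 33.4 CPM in Control and 44.6, 46.4 and 48.9 CPM in STZ, a log2 fold change of 0.49 ± 0.07 (SE). Irgq had 54.7, 53.9 and 53.1 CPM in Control and 62.7, 68.4 and 69.6 CPM in STZ. It had the smallest log2 fold change of the 6, at 0.31 ± 0.06 (SE), and its lowest STZ sample was nearest to Control. A log2 fold change as large as that of Irgq or larger was found in 15.2% of all genes tested.

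**Figure D2:**
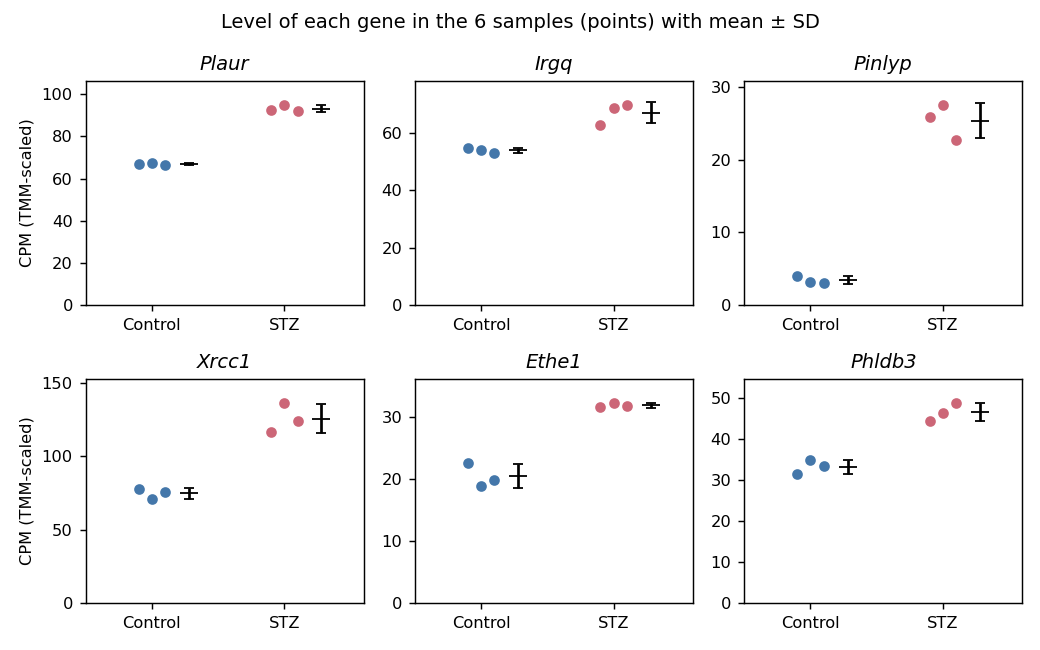
Level of each of the 6 measured genes (y axis, TMM-scaled CPM from 0; each panel has its own scale) in the 3 Control and 3 STZ samples (points), with mean ± SD beside them. In every panel all STZ points lie above all Control points, with the widest gap for Pinlyp, from 3.42 to 25.4 CPM on average.

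The summed level of the 6 genes was 253 CPM in Control and 390 CPM in STZ on average, a ratio of 1.54. Without Pinlyp the sums were 249.6 and 365 CPM, a ratio of 1.46, so most of the added reads came from the other 5 genes. The median log2 fold change was 0.57 over the 6 genes and 0.49 without Pinlyp, beside -0.0055 over all genes tested. Levels of different genes are not compared here, since reads were not divided by transcript length.

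The genes around the group were taken by position. They are those left after the group was chosen with this contrast in view, so they are not an independent set. These neighbours did not move one way. Of 23 other protein-coding genes, the 3 between Plaur and Irgq and 10 to each side, 12 had a row, 7 had enough reads to be tested, 3 rose and 1 fell with STZ. Calls for this and the other lists are at an adjusted p-value under 0.05 in edgeR, adjusted over the whole table. The background was 25.9% higher and 25.1% lower. Their median log2 fold change was 0.48. One of the 7, Lypd3, passed the filter on low counts only through its STZ samples. With 10 counts required in every sample, 6 were left, of which 2 rose and 1 fell, and the median was 0.25. The 5 with a row but too few reads, Tescl, Lypd10, Cd177, Ceacam4 and Dmrtc2, had at most 9 counts in any sample.

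Directly beyond Phldb3 lie Lypd3 and Tex101, which encode further membrane-anchored proteins of the Ly6/uPAR family. Both were higher in STZ. Lypd3 had 7, 6 and 10 counts in Control and 20, 18 and 32 in STZ, a log2 fold change of 1.37 ± 0.35 (SE). Because it passed the filter on low counts only through its STZ samples, its values are a description and no test is given. Tex101 had 53, 71 and 47 counts in Control and 142, 110 and 122 in STZ, a log2 fold change of 0.90 ± 0.16 (SE; edgeR adjusted p = 7.8e-06). For both, all STZ samples lay above all Control samples on the CPM scale, as in 28.6% of all genes tested.

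Of the 3 genes between Plaur and Irgq, 1 fell. Cadm4, a cell adhesion gene, had 16.3, 14.3 and 14.7 CPM in Control and 13.4, 15.7 and 16.5 CPM in STZ. The groups overlapped, and the log2 fold change was 0.01 with a 95% confidence interval of -0.19 to 0.22 (adjusted p = 0.938 from edgeR). Its sign was negative when libraries were scaled by the upper quartile or by library size only. Zfp428, a zinc finger gene, fell from 12.2, 13.2 and 11.9 CPM to 10.1, 8.59 and 9.07 CPM, a log2 fold change of -0.42 ± 0.12 (SE; edgeR adjusted p = 0.0023). Srrm5 had no row.

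On the other side of Plaur, Kcnn4, which encodes a calcium-activated potassium channel, rose from 2.07, 3.36 and 3.43 CPM to 7.12, 5.64 and 7.27 CPM. Its log2 fold change was 1.17 ± 0.19 (SE; edgeR adjusted p = 1.2e-06). Irgc, an immunity-related GTPase gene next to Plaur, had 15, 27 and 12 counts in Control and 35, 17 and 37 in STZ, and the groups overlapped on the CPM scale. Its log2 fold change of 0.48 ± 0.30 (SE) did not pass the test (edgeR adjusted p = 0.172), and was 0.92 (adjusted p = 0.0288 from edgeR) without Control replicate 2 and 0.18 (adjusted p = 0.664 from edgeR) without Control replicate 3. Smg9, a gene of nonsense-mediated mRNA decay, had a log2 fold change of -0.16 ± 0.07 (SE; edgeR adjusted p = 0.0636). It passed under 6 of 15 alternatives, among them leaving out Control replicate 1 (adjusted p = 0.031), Control replicate 2 (0.0354) or STZ replicate 2 (0.0297 from edgeR).

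The partners of Xrcc1 moved in both directions. Of 12 genes whose products bind or modify the protein, or act beside it in the same repair pathway, 5 fell and 2 rose at an adjusted p-value under 0.05, against 25.1% and 25.9% of all genes, and the median log2 fold change was 0.07. The lower genes, named after their values were seen apart from Parp1, encode a tyrosyl-DNA phosphodiesterase (Tdp1, log2 fold change -0.82), poly(ADP-ribose) polymerases (Parp2, -0.48, and Parp1, -0.42), DNA ligase III (Lig3, -0.33) and the AP endonuclease (Apex1, -0.29). The smallest p belonged to Parp1, with 199 ± 6.38 CPM in Control and 148 ± 5.73 CPM in STZ (SD, n = 3 each; adjusted p = 2.8e-11 from edgeR). The higher genes encode subunits of casein kinase 2, which phosphorylates the Xrcc1 protein, namely Csnk2b (0.36) and Csnk2a1 (0.11), both named after their values were seen. The call for Csnk2a1 was lost under 6 alternatives, among them leaving out Control replicate 1 (adjusted p = 0.118), Control replicate 2 (0.116), STZ replicate 1 (0.0618) or STZ replicate 3 (0.0724 from edgeR). Polb, which encodes DNA polymerase beta, had a log2 fold change of 0.12 (adjusted p = 0.146 from edgeR).

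Most other genes of the Ly6/uPAR family had few reads or no row. Of 38 gene names, Pinlyp and Plaur not counted, 16 had a row and 7 had enough reads to be tested. Of these, 4 rose, against a background of 25.9%, and their median log2 fold change was 0.90 over all 7. They were Tex101, which had the smallest p, and Lypd3, both described above as neighbours, with Lynx1 (1.83) and Lypd6b (1.37). Lynx1, which encodes a modulator of nicotinic receptors, had only 4, 6 and 9 counts in Control and 27, 21 and 32 in STZ. Lypd6b had 4, 4 and 5 against 14, 13 and 13, and lost its call with DESeq2. Lypd3, Lynx1 and Lypd6b passed the filter on low counts only through their STZ samples, so their values are a description and no test is given. For the same reason the count of 4 and the median of 0.90 show nothing about the family. When 10 counts were required in every sample, 4 genes were left, Tex101 alone was called, and the median was 0.28.

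Genes that work with the urokinase receptor rose in part. Of 14 genes, 9 had enough reads, 5 rose and 1 fell, against 25.9% and 25.1% of all genes, and the median log2 fold change was 0.16. Plau, which encodes urokinase itself, had at most 3 counts in any sample. Serpinb2, a serine protease inhibitor gene, had the largest change at 2.09, from 3, 4 and 6 counts to 21, 21 and 24, and passed the filter only through its STZ samples. With 10 counts required in every sample, 4 of 8 rose and 1 fell, with a median of 0.15. Other higher genes, named after their values were seen, were the integrin subunits Itgav (0.38) and Itga5 (0.16), and Plat (0.13), which encodes tissue plasminogen activator and lost its call without STZ replicate 1 (adjusted p = 0.0777 from edgeR). Mrc2, an endocytic partner of the receptor, fell with -0.20, and lost its call without Control replicate 3 (adjusted p = 0.182), without STZ replicate 1 (0.0992) and with DESeq2 (0.0727).

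The list of sulfide oxidation genes around Ethe1 also holds genes that make hydrogen sulfide, such as Cth. Its genes mostly stayed near the median of all genes. Of 8 genes, 6 had enough reads, 1 rose and 1 fell, against 25.9% and 25.1% of all genes, and their median log2 fold change was -0.03. Cth, which makes hydrogen sulfide from cysteine, had the smallest p and rose from 4.61 ± 0.359 to 8.01 ± 1.31 CPM (SD, n = 3 each; log2 fold change 0.81, adjusted p = 3.5e-05 from edgeR). Mpst, a mercaptopyruvate sulfurtransferase named after its values were seen, fell by 0.27 on the log2 scale. The other 4, Sqor, Suox, Tst and Tstd3, did not pass the test. Among relatives of Phldb3 and Irgq, Phldb1 (0.31), Phldb2 (0.25), Irgm (0.46) and Igtp (0.22) rose. These were 4 of 5 tested, against 25.9% of all genes, with a median of 0.31, and the other, Irgc, is described above. The call for Igtp was lost without Control replicate 3 (adjusted p = 0.0895 from edgeR).

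**Figure D3:**
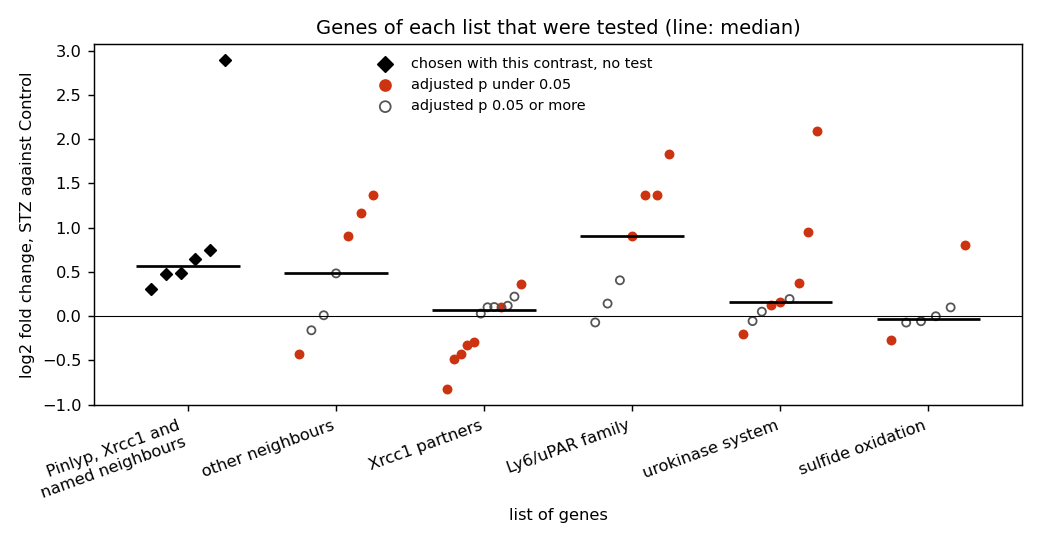
Log2 fold change (y axis, STZ against Control) of each gene tested, by list (x axis); horizontal lines are medians. Black diamonds are the 6 genes chosen with this contrast in view, and filled and open circles are other genes with an adjusted p-value under 0.05 or not. The diamonds have a median of 0.57, the other neighbours one of 0.48 and the Ly6/uPAR family one of 0.90. The urokinase system has 0.16, the Xrcc1 partners 0.07 and the sulfide oxidation genes -0.03. The neighbour, Ly6/uPAR and urokinase lists hold genes that passed the filter only through their STZ samples.

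To find the genes whose levels ran most like those of Pinlyp and Xrcc1, log2 levels were centred on their mean over the 6 samples and compared by the root mean square difference, among 9687 genes that had a symbol and averaged 50 or more normalized counts. The 5 genes nearest to Pinlyp were Des (difference 0.16), Cd80 (0.20), Cdkn1a (0.23), Svop (0.26) and Mmp2 (0.28). Their log2 fold changes ran from 2.33 for Mmp2 to 3.23 for Svop, around the 2.89 of Pinlyp. The 5 nearest to Xrcc1 were Nptxr, Eno2, Bcl2l1, Ptprj and Micall1, each with a difference of 0.05 and with log2 fold changes of 0.70 to 0.79. These differences are descriptions over 6 samples in 2 groups, which all share the same libraries. The measure is largely set by the difference between the groups, so that the nearest genes have similar fold changes follows from it.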

How the data were processed

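RNA from 3 Control and 3 STZ samples was sequenced from stranded mRNA libraries. The authors mapped reads to Rnor6 with STAR 2.7.10a and deposited raw counts of uniquely mapped reads per gene from featureCounts; the strand setting is not given in the sources used here. All 6 columns were matched to samples by title, and 0 were left over. Counts were scaled by TMM, filtered by filterByExpr (at least 10 counts, 15 in total) and compared by quasi-likelihood F tests in edgeR 4.0.16 (R 4.3.3); p-values of 11870 genes were adjusted after Benjamini and Hochberg. Standard errors (SE) were derived from F. DESeq2 1.42.0 and limma 3.58.1 served as alternatives, beside other filters, scalings, a replicate block and each sample left out. The steps were tested on simulated data. Replicates were not copies of each other (chi-square per degree of freedom 1.85 to 2.56). With 3 samples against 3, depth limits genes of few counts.

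The members and lists were chosen with earlier results of these data known. Named genes are the measured members, the neighbours within 10 genes, in each list that with the lowest p, those past a log2 fold change of 1, and the 5 genes most like Pinlyp or Xrcc1. Neighbours and promoters come from RefSeq (GRCr8), matched by symbol or older symbol. A few list genes have no value reported here but are counted in list totals, medians and plots.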

Additional observations from a re-analysis of the deposited data

How the results depend on the processing

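The 6 measured genes of the group stayed higher with an adjusted p-value under 0.05 in each of their 15 refits. Their log2 fold changes were 2.80 to 3.02 for Pinlyp, 0.69 to 0.80 for Xrcc1 and 0.28 to 0.36 for Irgq. Since the genes were chosen with this contrast in view, this is a description and not a test. Between 2598 (DESeq2) and 3139 (replicate block) of all genes tested were called higher in the same refits. With a log2 fold change over 1 required as well, 1 of the 6 was called, 2 of 7 neighbours, 3 of 7 Ly6/uPAR genes and 1 of 9 urokinase system genes. All of these were higher, as were 2.26% of all genes. Lypd3, Lynx1, Lypd6b and Serpinb2 among them passed the filter on low counts only through their STZ samples. The count was 0 for the Xrcc1 partners, the sulfide oxidation genes and the relatives of Phldb3 and Irgq. Here 0 follows from the added threshold, since 7, 2 and 4 genes passed without it. With 20 genes to each side, 7 of 20 neighbours rose and 2 fell, 9 in all, against 25.9% and 25.1% of all genes, and with 10 counts required in every sample 1 of 4 Ly6/uPAR genes. Cadm4 had a log2 fold change of -0.0080 under the upper quartile and -0.023 under library size only, and between -0.058 and 0.10 when samples were left out in turn. The cause was not tested. The 34 genes refitted singly were the members, the neighbours and those genes of the other lists that were already called. A high share of kept calls thus follows in part from the choice. Refits in which a gene did not pass the filter are not counted. Of 505 refits of 34 single genes, 480 kept direction and call, 12 lost the call, 7 gained it and 6 turned direction, all 6 for Cadm4.

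Control and STZ share replicate numbers. The deviations of same-numbered samples from their group means had correlations of 0.0339, -0.0337 and 0.105 over 10341 genes. Differently numbered samples were not compared in this way, so these values cannot decide whether the number marks a shared batch. When fitted with the replicate block, all 6 members rose. Of 7 neighbours 3 rose and 2 fell, and of 12 Xrcc1 partners 2 rose and 5 fell. Of all 11870 genes tested, 3139 rose and 3060 fell in that fit. Smg9 was the neighbour added (adjusted p = 0.0487 from edgeR).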

Other observations

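Farther from the group, in the window of 20 protein-coding genes to each side, 5 more genes were called, all named after their values were seen. Of the 20 tested there, 7 rose and 2 fell, against 25.9% and 25.1% of all genes. Rps19, a ribosomal protein gene, rose with a log2 fold change of 0.37, Dedd2, a death effector domain gene, with 0.37, Pvr, the poliovirus receptor gene, with 0.31, and Pou2f2, a transcription factor gene, with 0.54 (adjusted p = 0.0445 from edgeR). Arhgef1, a guanine nucleotide exchange factor gene, fell with -0.11 (adjusted p = 0.0257 from edgeR). The median log2 fold change over the 20 neighbours tested in this window was 0.07, beside 0.48 for the 7 in the narrower one and -0.0055 over all genes tested. The 7 are part of the 20, and 0.48 is the value of Irgc, which did not pass the test. With 10 counts required in every sample, the medians were 0.07 over 18 genes and 0.25 over the 6 of the narrower window.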
